A study of Mus musculus with 16 samples.

Results

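Complement is described here by 6 genes of 49452 in the tables, chosen by their symbols: *C3*, *C4b*, *Cfb*, *Serping1*, *C3ar1* and *C5ar1*. RNA was sequenced from lung cells sorted for the red fluorescent label tdTomato, in 4 groups of 4 mice, 16 in all. *Acta2-tdT* mice (Acta2-CreERT2; tdTomatoflox) carried tamoxifen-responsive Cre under the *Acta2* promoter, and received saline or bleomycin and then food with 400 mg/kg tamoxifen from day 5. *Pdgfra-tdT* mice (Pdgfra-CreERT2; tdTomatoflox) carried the same Cre under the *Pdgfra* promoter, and received 5 injections of 3 mg tamoxifen at 6 weeks of age, before saline or bleomycin. The lungs of all 4 groups were taken at day 14 after saline or bleomycin, at 11 weeks of age. All mice carried the same Cre-dependent tdTomato reporter and all received tamoxifen, so that no group was without Cre or tamoxifen. The label marks cells in which the promoter was active when tamoxifen was given, which was after the injury in *Acta2-tdT* and before it in *Pdgfra-tdT* mice, and line and tamoxifen schedule cannot be told apart. Cells came from the left lobe, freed by mechanical separation and dispase, and went from the sorter into lysis buffer and to SmartSeq2 libraries, a method that amplifies full-length cDNA from few cells.

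Complement is a set of plasma and tissue proteins that tag surfaces for uptake, attract leukocytes and perforate membranes. In the classical and lectin routes, recognition proteins such as C1q or the ficolins activate proteases that cleave C4 and *C2*, and in the alternative route factor B, the product of *Cfb*, supplies the protease that cleaves *C3*. *C3* is the protein on which the routes meet, the C1 inhibitor encoded by *Serping1* blocks the first proteases, and the receptors encoded by *C3ar1* and *C5ar1* sense the small fragments C3a and C5a, mainly on myeloid cells. The liver makes most plasma complement, but fibroblasts, epithelial cells and macrophages of the lung make components locally.

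Values are FPKM, fragment numbers divided by transcript length and by the size of the library, used as deposited, and also scaled so that the FPKM of nuclear protein-coding genes had the same sum in each mouse. That sum lay between 35602 and 57788 in *Acta2-tdT* saline, between 231058 and 463127 in *Acta2-tdT* bleomycin, between 29964 and 59840 in *Pdgfra-tdT* saline and between 28512 and 137952 in *Pdgfra-tdT* bleomycin. The scaling therefore moved the groups differently, by factors of 2.21 to 3.58 for the saline mice and of 0.276 to 0.552 for the bleomycin mice of the *Acta2-tdT* line. Among *Acta2-tdT* mice it moved the median log2 fold change of all genes tested, bleomycin over saline, from 1.76 to -0.03. Smooth muscle markers fitted the *Acta2-tdT* label, with 7 of 7 higher in *Acta2-tdT* than in *Pdgfra-tdT* cells in both treatments and on both scales (limma, adjusted p under 0.05). *Pdgfra* itself fitted the *Pdgfra-tdT* label with saline, at 7.55 to 12.9 scaled FPKM against 0.836 to 2.02 in *Acta2-tdT* cells (log2 difference, *Acta2-tdT* over *Pdgfra-tdT*, -1.43 on deposited and -2.28 on scaled FPKM, limma adjusted p = 0.0097 and 0.0067). After bleomycin it averaged 1.70 FPKM in *Pdgfra-tdT* and 7.87 in *Acta2-tdT* cells, a difference of 1.60 (limma adjusted p = 0.0089) that was -0.46 on scaled FPKM (limma adjusted p = 0.372). It is 1 of 8 fibroblast markers, of which 6 were tested with saline. In *Acta2-tdT* cells 1 of these was higher on deposited and none on scaled FPKM, and *Pdgfra* alone was lower. After bleomycin 7 of 7 tested were higher in *Acta2-tdT* cells on deposited FPKM, where 71% of all genes tested were, and 5 on scaled FPKM, where 15.2% were. The 8 summed to 19.6 to 42.1 FPKM in *Acta2-tdT* saline, 1043 to 3165 in *Acta2-tdT* bleomycin, 7.62 to 62.6 in *Pdgfra-tdT* saline and 2.62 to 176.7 in *Pdgfra-tdT* bleomycin mice, where *Tcf21* was listed at 0 in all 4. Macrophage markers (10 genes, none at 0 in a whole group, with *Lyz2* making up 74.2% to 93.8% of the sum in each mouse) summed to 44.8 to 225.6 FPKM in *Acta2-tdT* saline, 1263 to 5117 in *Acta2-tdT* bleomycin, 30.3 to 81.0 in *Pdgfra-tdT* saline and 365.8 to 3148 in *Pdgfra-tdT* bleomycin. The 7 endothelial markers summed to 366.3 FPKM in *Pdgfra-tdT* saline mouse 3 and 967.4 in *Pdgfra-tdT* bleomycin mouse 5, against 4.42 to 10.6 in the other 3 *Pdgfra-tdT* saline mice and at most 105.9 in the other 3 *Pdgfra-tdT* bleomycin mice. Several results are therefore also given without these mice. The 1412 olfactory and vomeronasal receptor genes, which are best known from sensory neurons and serve here as a level of genes little used in most cells, had a median FPKM of 0.321 to 0.329 with saline and 0.0130 to 0.120 with bleomycin in the *Acta2-tdT* mice, and of 0.173 to 0.333 and 0.0919 to 0.314 in the *Pdgfra-tdT* mice.

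On GRCm38, 3 of the genes lie on chromosome 17: *C3* (ENSMUSG00000024164) from 57203970 to 57228136, *C4b* (ENSMUSG00000073418) from 34728380 to 34743882 and *Cfb* (ENSMUSG00000090231) from 34856374 to 34862518. *Serping1* (ENSMUSG00000023224) lies on chromosome 2 from 84765387 to 84775444, *C3ar1* (ENSMUSG00000040552) on chromosome 6 from 122847138 to 122856161 and *C5ar1* (ENSMUSG00000049130) on chromosome 7 from 16246743 to 16259540. All 6 are protein-coding genes on the minus strand, with the same ends in GENCODE vM21. The values cover whole genes, exons and UTRs together. *C4b* has a near-identical copy, *C4a*, between which reads can be split, and *C4a* had at most 0.221 FPKM in any mouse. *Cfb* is overlapped by the read-through gene *Gm20547*, which had at most 0.220 FPKM in any mouse.

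RefSeq promoters of GRCm38.p6 were at hand for 3 of the 6 genes, and are shown because *C3*, *C3ar1* and *C5ar1* differed in how much of their difference was left after the scaling. Each line gives the 250 bases before the RefSeq start, 5′ to 3′ on the minus strand, at chr17:57228137-57228386, chr6:122856158-122856407 and chr7:16259339-16259588. The last 4 bases of the *C3ar1* window are in the first exon of its GENCODE transcript. Of the 250 bases of the *C5ar1* window, 202 lie inside the GENCODE gene, 28 of them in the first exon and 174 in the first intron of transcripts that start further upstream. Capitals mark the matches to 5 motifs searched on both strands, and no matches overlapped.
C3: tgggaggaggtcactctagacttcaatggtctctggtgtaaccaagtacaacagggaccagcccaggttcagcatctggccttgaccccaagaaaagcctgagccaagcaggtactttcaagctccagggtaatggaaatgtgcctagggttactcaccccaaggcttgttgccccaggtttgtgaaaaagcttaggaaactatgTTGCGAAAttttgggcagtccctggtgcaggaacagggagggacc
C3ar1: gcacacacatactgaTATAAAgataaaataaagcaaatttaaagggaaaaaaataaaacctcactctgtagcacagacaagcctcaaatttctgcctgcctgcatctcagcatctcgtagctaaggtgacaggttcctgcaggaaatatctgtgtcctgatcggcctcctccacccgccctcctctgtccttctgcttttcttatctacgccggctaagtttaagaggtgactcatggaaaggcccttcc
C5ar1: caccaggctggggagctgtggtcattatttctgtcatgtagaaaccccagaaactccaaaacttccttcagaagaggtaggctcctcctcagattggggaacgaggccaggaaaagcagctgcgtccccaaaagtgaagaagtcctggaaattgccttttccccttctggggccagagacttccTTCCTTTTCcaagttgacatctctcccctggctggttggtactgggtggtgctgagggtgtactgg
The motifs were TATAAA (the box of that name), TTGCNNAA (C/EBP core), GGGANTTTC (NF-kappa-B core), TTCNNNGAA (gamma-activated site) and GAAANNGAA (interferon-stimulated response element). In *C3* the C/EBP core TTGCGAAA lay from -45 to -38, and 9.56% of 32851 RefSeq promoters held such a core. In *C5ar1* the interferon-stimulated element lay on the other strand, read as TTCCTTTTC from -66 to -58, within that intron, and 7.13% of promoters held one. In *C3ar1* the letters TATAAA lay from -235 to -230, and 12.4% of promoters held them. The gamma-activated site was in 7.02% and the NF-kappa-B core in 0.941% of promoters, and these letters were in none of the 3 windows. *Cfb*, *C4b* and *Serping1* had no entry.

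The first comparison asked how bleomycin, a drug that injures the lung and is followed by fibrosis, changed these genes in *Acta2-tdT* cells. On deposited FPKM all 6 rose, where 70.4% of all genes tested did. The filter was passed by 6 of 6, for which their level in the bleomycin mice was enough, so that the counts are a description. On scaled FPKM 2 of 6 were higher, *C3* and *Cfb*, where 23.7% of genes tested were higher and 32.1% lower. With quantile normalization, which makes the whole distribution of values the same in each mouse, 5 of 6 passed, all but *C5ar1*, where 70.2% of all genes tested passed in either direction, and among the alternatives tried on deposited FPKM the scaling alone ended the calls of *Serping1*, *C4b* and *C3ar1*. Differences are log2 fold changes of FPKM + 1 from limma, which understate the change of genes with low values. With bulk RNA, fewer cells of a type and less RNA per cell cannot be told apart.

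**Figure D1:**
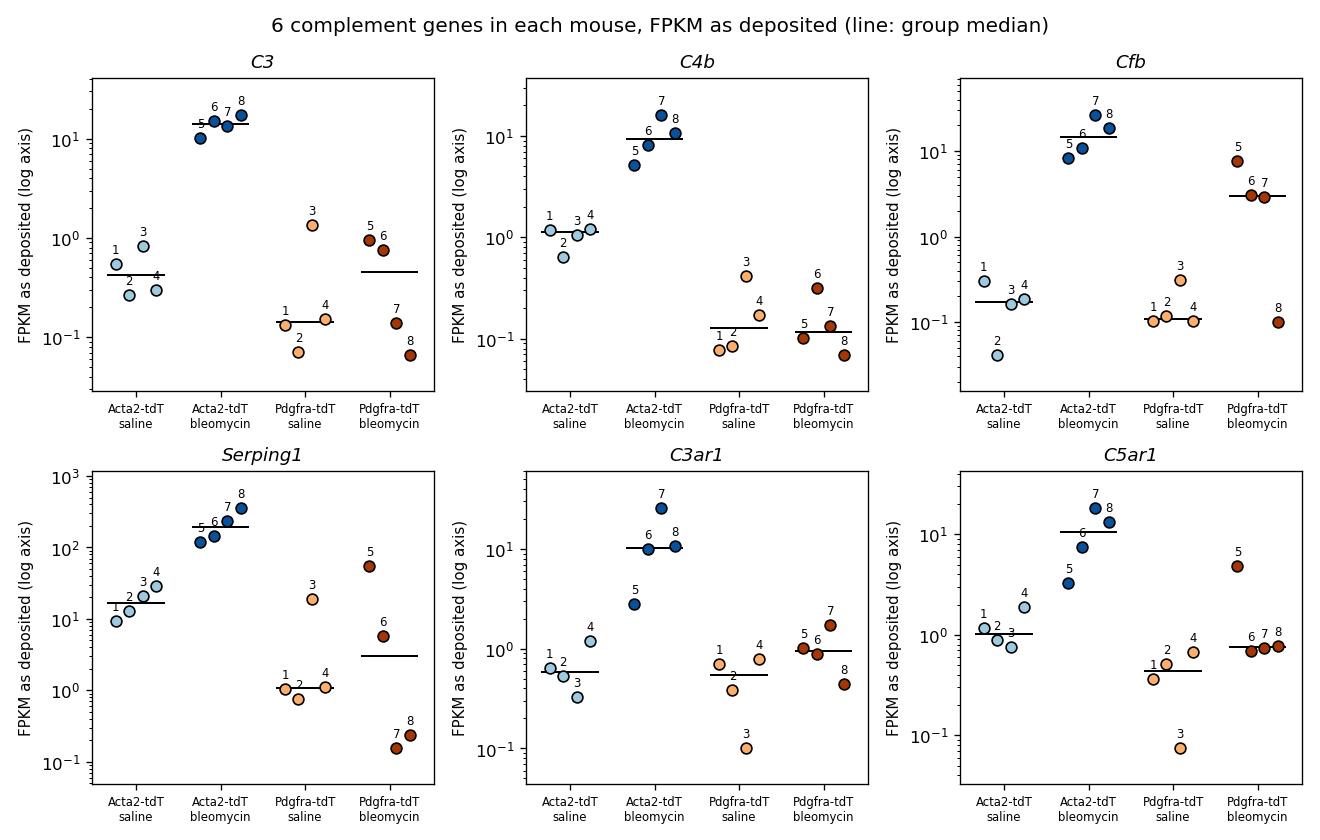
FPKM as deposited of the 6 genes in each of 16 mice (points numbered by mouse, horizontal lines for group medians, log axis). The 4 *Acta2-tdT* bleomycin mice lie above the 4 *Acta2-tdT* saline mice in each panel, and among *Pdgfra-tdT* bleomycin mice *Cfb* is at 7.64, 3.08 and 2.92 in mice 5 to 7 and 0.1001 in mouse 8.

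*C3*, the central component, had 0.550, 0.269, 0.822 and 0.298 FPKM in *Acta2-tdT* saline mice 1 to 4 and 10.05, 14.9, 13.5 and 17.5 in *Acta2-tdT* bleomycin mice 5 to 8. Every bleomycin mouse lay above every saline mouse. The log2 fold change was 3.33 (standard error 0.27, limma adjusted p = 1.1e-05). Scaled FPKM were 1.90, 0.963, 2.16 and 0.659 with saline and 4.03, 8.23, 3.94 and 4.82 with bleomycin. The groups still did not overlap, and mouse 6 was highest with bleomycin. The log2 fold change was 1.37 on this scale (standard error 0.30, limma adjusted p = 0.0034). Saline mice 2 and 4 lay below the same mouse's median of the olfactory and vomeronasal receptor genes, 0.326 and 0.321 FPKM. That median was 0.709 to 1.17 scaled FPKM with saline and 0.00357 to 0.0661 with bleomycin, and its part in the scaled change was not tested.

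*C4b*, the classical and lectin component, had 1.18, 0.638, 1.06 and 1.21 FPKM with saline and 5.16, 8.21, 16.3 and 10.6 with bleomycin. The groups were apart, and the log2 fold change was 2.36 (standard error 0.33, limma adjusted p = 8.4e-05). On scaled FPKM the values were 4.09, 2.29, 2.78 and 2.67 with saline and 2.07, 4.53, 4.76 and 2.93 with bleomycin. They overlapped, and the difference was 0.18 (standard error 0.26, limma adjusted p = 0.574).

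*Cfb*, the alternative route's protease, was barely detected with saline, at 0.303, 0.0407, 0.163 and 0.183 FPKM, all below the median of the olfactory and vomeronasal receptor genes in those mice. From the Cufflinks bounds these values came from about 1 to 19 fragments, and the bleomycin values from about 362 to 1144. With bleomycin it had 8.18, 10.7, 26.8 and 18.6 FPKM. The log2 fold change of 3.74 (standard error 0.35, limma adjusted p = 1.6e-05) was the largest of the 6 genes. On scaled FPKM it was 2.103 (standard error 0.27, limma adjusted p = 0.000142), from 0.146 to 1.05 with saline to 3.28 to 7.84 with bleomycin, again with no overlap. *Cfb* and *C3* were the members that rose on both scales. Neither reached 1 FPKM in any saline mouse of the line, so that both were tested only through the bleomycin mice. The fibroblast markers rose in the same comparison, 7 of 7 tested on deposited and 6 on scaled FPKM, and summed to 67.8 to 93.0 scaled FPKM with saline and 576.2 to 872.0 with bleomycin. Of the epithelial markers 6 of 6 tested rose on deposited FPKM and 2, *Krt18* and *Krt8*, on scaled FPKM, by 2.03 and 1.64, while the 7 summed to 159.9 to 2066 scaled FPKM with saline and 103.2 to 633.9 with bleomycin. The part of fibroblasts and epithelial cells in the rises of *C3*, *Cfb* and *Serping1* was not tested.

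*Serping1*, the C1 inhibitor, was the most abundant of the 6 genes in every *Acta2-tdT* mouse. It had 9.29, 12.8, 20.8 and 28.7 FPKM with saline and 118.4, 142.9, 237.8 and 362.2 with bleomycin. The groups were apart, and the log2 fold change was 3.50 (standard error 0.50, limma adjusted p = 9.3e-05). On scaled FPKM it had 32.2, 45.9, 54.5 and 63.4 with saline and 47.5, 78.9, 69.6 and 99.8 with bleomycin. Mouse 5 fell within the saline range, and the difference of 0.58 (standard error 0.33, limma adjusted p = 0.158) did not pass.

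The receptors rose on deposited FPKM and did not pass on scaled FPKM. *C3ar1*, the C3a receptor, had 0.642, 0.531, 0.325 and 1.203 FPKM with saline and 2.78, 10.1, 26.1 and 10.6 with bleomycin, a log2 fold change of 2.70 (standard error 0.51, limma adjusted p = 0.00057). *C5ar1*, the C5a receptor, had 1.17, 0.895, 0.765 and 1.91 FPKM with saline and 3.28, 7.51, 18.5 and 13.4 with bleomycin, a log2 fold change of 2.23 (standard error 0.45, limma adjusted p = 0.00084). In both, mouse 5 was the lowest and mouse 7 the highest with bleomycin, as for the summed macrophage markers, which were 1263 and 5117 FPKM in these mice. *C4b* and *Cfb* were lowest and highest in the same mice. The scaled log2 fold changes were 0.73 for *C3ar1* (standard error 0.43, limma adjusted p = 0.179) and 0.03 for *C5ar1* (standard error 0.34, limma adjusted p = 0.951). Without mouse 5 that of *C3ar1* was 1.10 (limma adjusted p = 0.0279), and with quantile normalization of all 8 mice 1.23 (limma adjusted p = 0.0218), so that its call depended on the scaling and on 1 mouse. With quantile normalization *C5ar1* did not pass, at 0.52 (limma adjusted p = 0.167). The 10 neutrophil markers summed to 2661 to 4003 scaled FPKM with saline and 340.4 to 2303 with bleomycin, and 5 of 9 tested were lower with bleomycin on that scale. The part of macrophages or neutrophils in the receptor values was not tested.

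**Figure D2:**
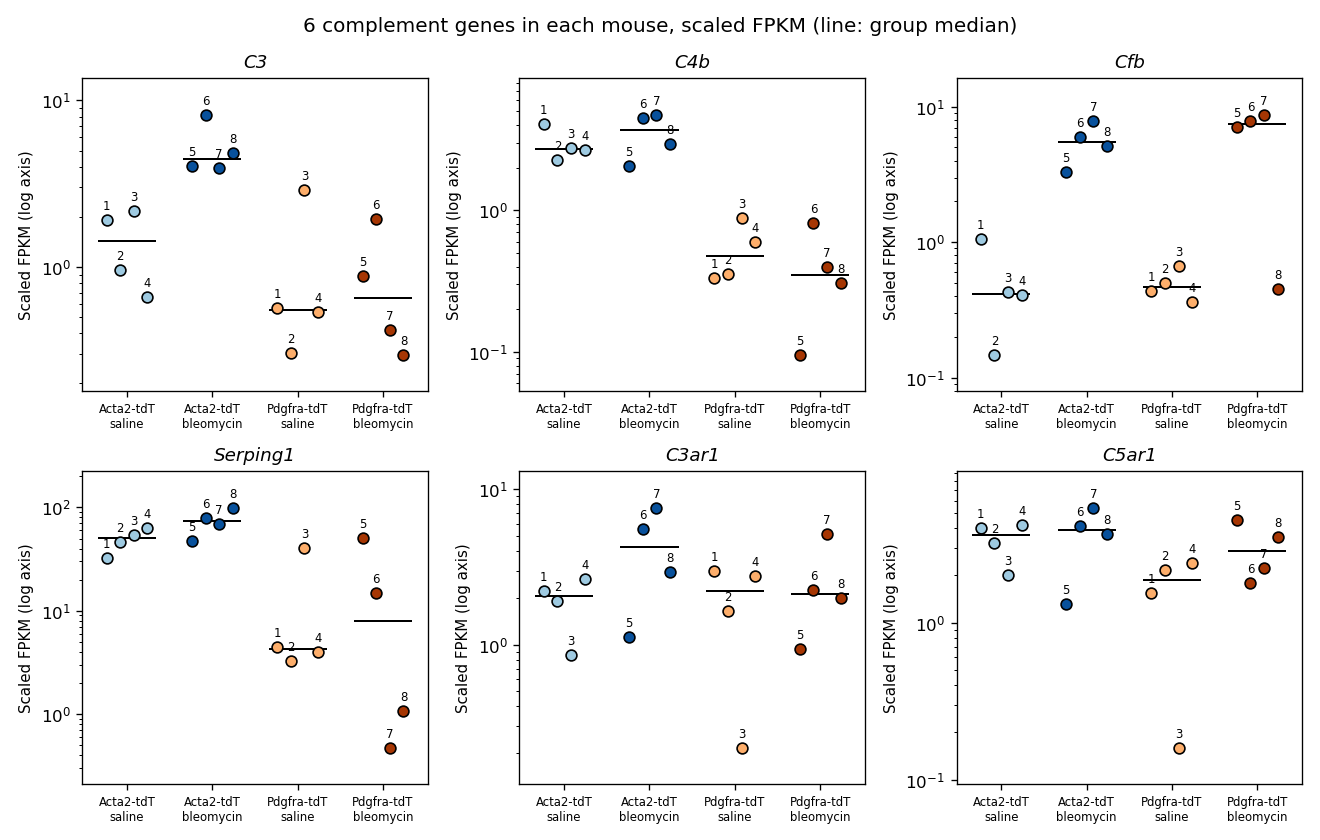
Scaled FPKM of the 6 genes in each of 16 mice, with the nuclear protein-coding FPKM made to sum to the same value (points numbered by mouse, horizontal lines for group medians, log axis). In *Acta2-tdT* cells the saline and bleomycin mice stay apart for *C3* and *Cfb* and overlap for the other 4 genes, and *Cfb* in *Pdgfra-tdT* bleomycin mice 5 to 7, is at 7.07 to 8.76, against 3.28 to 7.84 in the *Acta2-tdT* bleomycin mice.

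In *Pdgfra-tdT* cells, bleomycin changed none of the 6 genes by limma, where 0.124% of all genes tested passed on deposited and 0.151% on scaled FPKM. Only *Serping1* passed the filter there, and the other 5 were compared with the exact two-sided permutation test over 70 labellings, which cannot go below p = 0.0286 with 4 mice against 4. At an unadjusted p under 0.05, 312 of 7275 genes passed limma on deposited and 314 on scaled FPKM.

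*Cfb* had 0.102, 0.117, 0.312 and 0.102 FPKM in *Pdgfra-tdT* saline mice 1 to 4 and 7.64, 3.08, 2.92 and 0.1001 in *Pdgfra-tdT* bleomycin mice 5 to 8. The first 3 bleomycin mice lay above every saline mouse and mouse 8 below them all. On log2(FPKM + 1) the difference was 1.60 (exact permutation test, p = 0.143) and on scaled values 1.93 (exact permutation test, p = 0.0857). On scaled FPKM the saline mice had 0.359 to 0.666, and the bleomycin mice 7.07, 7.89, 8.76 and 0.448. Mouse 8 also had the lowest summed macrophage markers of its group, at 365.8 FPKM against 1375 to 3148, though above every saline mouse. The value of mouse 8 rested on about 2 fragments.

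*Serping1* had 1.05, 0.764, 19.2 and 1.13 FPKM in the *Pdgfra-tdT* saline mice and 54.8, 5.79, 0.155 and 0.2404 in the *Pdgfra-tdT* bleomycin mice. Its spread within a treatment was larger than its difference between them, which was 0.45 on deposited (standard error 1.36, limma adjusted p = 0.904) and -0.24 on scaled FPKM (standard error 1.21, limma adjusted p = 0.934). Saline mouse 3 and bleomycin mouse 5, the highest of each group, were the mice with high endothelial markers, and they were also highest in fibroblast markers, at 62.6 and 176.7 summed FPKM. Without both mice the difference was 0.12 on deposited FPKM. The part of endothelial cells and fibroblasts in *Serping1* was not tested. Its values in bleomycin mice 7 and 8 rested on about 3 and 6 fragments.

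*C3* had 0.133, 0.0713, 1.35 and 0.152 FPKM with saline and 0.959, 0.761, 0.140 and 0.0658 with bleomycin in *Pdgfra-tdT* cells. The groups overlapped on both scales (exact permutation test, p = 0.914 deposited and p = 0.8286 scaled). *C4b* had 0.0779, 0.0843, 0.418 and 0.170 FPKM with saline and 0.102, 0.320, 0.132 and 0.0686 with bleomycin, also overlapping (exact permutation test, p = 0.657 deposited and p = 0.457 scaled). For each of these genes, 5 of the 8 values lay below the same mouse's median of the receptor genes, and the values came from about 7 to 153 fragments for *C3* and 8 to 49 for *C4b*. Small changes were not detectable at this level.

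*C3ar1* had 0.700, 0.386, 0.1004 and 0.783 FPKM with saline and 1.01, 0.877, 1.71 and 0.445 with bleomycin in *Pdgfra-tdT* cells (exact permutation test, p = 0.143 deposited and p = 0.600 scaled). *C5ar1* had 0.365, 0.513, 0.0743 and 0.679 FPKM with saline and 4.90, 0.692, 0.747 and 0.782 with bleomycin. Every bleomycin mouse lay above every saline mouse for *C5ar1* on deposited FPKM, 3 of them by little, with a difference of 0.77 on the log2 scale (exact permutation test, p = 0.0286). On scaled FPKM the groups overlapped, with a difference of 0.70 (exact permutation test, p = 0.143). Without bleomycin mouse 5 and saline mouse 3 the differences were 0.20 and 0.18, and the groups were still apart on deposited FPKM, where 3 mice against 3 cannot go below p = 0.1 (exact permutation test, p = 0.1 deposited and p = 0.5 scaled).

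The next comparison set the lines side by side in bleomycin-treated mice. On deposited FPKM 6 of 6 members were higher in *Acta2-tdT* cells, where 71% of all genes tested were, with a median log2 fold change of 1.81 over all of them. On scaled FPKM, where that median was 0.26, *C3*, *C4b* and *Serping1* were higher, 3 of 6, where 15.2% of genes tested were. All 6 could pass the filter through the *Acta2-tdT* mice alone, and *C3* and *C4b*, at most 0.959 and 0.320 FPKM in the *Pdgfra-tdT* mice, passed only through them, so that the counts are a description. The *Acta2-tdT* bleomycin mice were also the ones compared with saline above, and the values given there are used again here.

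*C3* showed a log2 fold change, *Acta2-tdT* over *Pdgfra-tdT*, of 3.36 on deposited (standard error 0.40, limma adjusted p = 8.0e-05) and 1.76 on scaled FPKM (standard error 0.38, limma adjusted p = 0.0070). Scaled FPKM of *C3* in the *Pdgfra-tdT* bleomycin mice were 0.887, 1.95, 0.419 and 0.295, all below the lowest *Acta2-tdT* mouse at 3.94. *C4b* showed 3.17 (standard error 0.38, limma adjusted p = 8.1e-05) and 1.68 (standard error 0.31, limma adjusted p = 0.0037), with scaled FPKM of 0.0947, 0.820, 0.397 and 0.307 in the *Pdgfra-tdT* mice, all below the lowest *Acta2-tdT* mouse at 2.07. For these components the lines did not overlap on either scale.

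*Serping1* showed the largest difference on both scales, 5.35 on deposited (standard error 1.16, limma adjusted p = 0.0017) and 3.36 on scaled FPKM (standard error 1.03, limma adjusted p = 0.0311). Scaled FPKM in the *Pdgfra-tdT* bleomycin mice were 50.7, 14.9, 0.465 and 1.08, and mouse 5 lay above the lowest *Acta2-tdT* mouse, at 47.5. Mice 7 and 8 had 0.155 and 0.2404 FPKM as deposited, from about 3 and 6 fragments. Both lay below the same mouse's median of the receptor genes, 0.290 and 0.304 FPKM, so that the size of the difference is uncertain. The scaled call was lost without any 1 of the *Acta2-tdT* mice 5 to 8 or the *Pdgfra-tdT* mice 7 and 8, with adjusted p from 0.0538 to 0.0846 in limma, and with no filter on low FPKM (limma adjusted p = 0.0983). Without *Pdgfra-tdT* mouse 5, the one with high endothelial markers, the differences were 6.52 (limma adjusted p = 4.6e-05) and 4.32 on scaled FPKM (limma adjusted p = 0.0018).

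*Cfb* was higher in *Acta2-tdT* cells only as deposited, by 2.15 (standard error 0.66, limma adjusted p = 0.0110). On scaled FPKM the difference was 0.17 (standard error 0.62, limma adjusted p = 0.847), and without *Pdgfra-tdT* mouse 8 it turned to -0.49 (limma adjusted p = 0.310). *C3ar1* showed 2.45 (standard error 0.56, limma adjusted p = 0.0021) and 0.51 on scaled FPKM (standard error 0.52, limma adjusted p = 0.468). *C5ar1* showed 2.09 (standard error 0.58, limma adjusted p = 0.0066) and 0.17 on scaled FPKM (standard error 0.43, limma adjusted p = 0.770), and its lines overlapped on both scales.

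**Figure D3:**
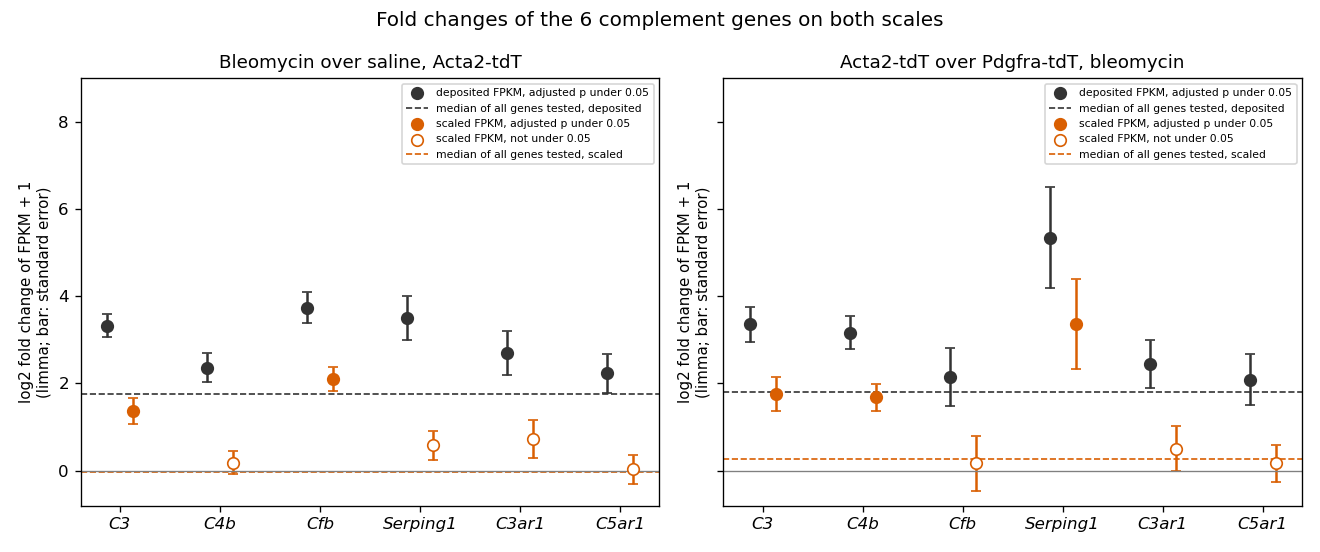
Log2 fold changes of FPKM + 1 for the 6 genes from limma, bleomycin over saline in *Acta2-tdT* cells (left) and *Acta2-tdT* over *Pdgfra-tdT* cells after bleomycin (right), with standard errors as bars, on deposited (black) and scaled FPKM (orange). Filled points have an adjusted p under 0.05 and dashed lines are medians of all genes tested, 1.76 and -0.03 on the left, 1.81 and 0.26 on the right, so that on the scaled axis only *C3* and *Cfb* (left) and *C3*, *C4b* and *Serping1* (right) are filled.

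In saline-treated mice none of the 6 genes differed between the lines by limma, where 2.91% of genes tested did on deposited and 3.12% on scaled FPKM, and 1116 and 1279 of 8153 had an unadjusted p under 0.05. Only *Serping1* passed the filter. Its difference was 2.30 (standard error 0.82, limma adjusted p = 0.252) and 2.54 on scaled FPKM (standard error 0.77, limma adjusted p = 0.141), with every *Acta2-tdT* mouse at 9.29 FPKM or more and every *Pdgfra-tdT* mouse but mouse 3 at 1.13 or less. Without *Pdgfra-tdT* mouse 3 it was 3.14 (limma adjusted p = 0.0040) and 3.32 on scaled FPKM (limma adjusted p = 0.0012). *C4b*, not tested by limma, was higher in every *Acta2-tdT* mouse on both scales, by 0.77 and 1.35 (exact permutation test, p = 0.0286 on each, the smallest possible). *C5ar1* did not overlap on deposited FPKM, with a difference of 0.63 (exact permutation test, p = 0.0286), and overlapped on scaled FPKM (exact permutation test, p = 0.0857). Without *Pdgfra-tdT* mouse 3 *C4b* kept the same p on both scales, while the difference of *C5ar1* was 0.50 on deposited FPKM (exact permutation test, p = 0.0571). Leukocyte markers also differed between the lines with saline: 3 of 5 neutrophil markers tested were higher in *Acta2-tdT* cells on both scales, *S100a8* by 5.32 on deposited FPKM, and of 5 general leukocyte markers 3 were higher on deposited and 2 on scaled FPKM. The 10 neutrophil markers summed to 742.6 to 1523 FPKM in *Acta2-tdT* and 22.2 to 46.6 in *Pdgfra-tdT* saline mice. The part of neutrophils in the *C5ar1* difference was not tested. *C3*, *Cfb* and *C3ar1* overlapped between the lines on both scales, with exact permutation p between 0.429 and 0.914. Without *Pdgfra-tdT* mouse 3 *C3* no longer overlapped, with differences of 0.39 and 0.68 on scaled FPKM (exact permutation test, p = 0.0857 and 0.0571).

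Whether bleomycin acted differently in the lines was tested as the interaction over all 16 mice. On deposited FPKM 4 of 6 members had a larger change in *Acta2-tdT* cells, where 36.6% of genes tested did. All 6 could pass the filter through the *Acta2-tdT* bleomycin mice alone, which are used again here, so that the count is a description. In *Pdgfra-tdT* cells *C3* was at most 1.35 and *C4b* at most 0.418 FPKM in any mouse. The difference of the log2 changes was 3.24 for *C3* (standard error 0.43, limma adjusted p = 0.000113), 2.40 for *C4b* (standard error 0.38, limma adjusted p = 0.00038), 2.28 for *C3ar1* (standard error 0.63, limma adjusted p = 0.0111) and 2.13 for *Cfb* (standard error 0.69, limma adjusted p = 0.0248). *Serping1* at 3.04 (standard error 1.55, limma adjusted p = 0.124) and *C5ar1* at 1.47 (standard error 0.66, limma adjusted p = 0.0881) did not pass. Without *Pdgfra-tdT* bleomycin mouse 5 they were 4.22 (limma adjusted p = 0.0086) and 1.91 (limma adjusted p = 0.0103). Without *Acta2-tdT* bleomycin mouse 5 *C5ar1* also passed (limma adjusted p = 0.0249), and without *Acta2-tdT* bleomycin mouse 7 *Cfb* no longer did (limma adjusted p = 0.0546). The call of *Cfb* was also lost with no filter (limma adjusted p = 0.0605) and with a pseudocount of 0.1 (limma adjusted p = 0.0950). *C3ar1* lost its call with that pseudocount too. Under quantile normalization *Cfb*, *C4b* and *C3ar1* all lost theirs, and *C3* alone passed. On scaled FPKM none of the 6 passed, where 3.28% of genes tested did, and the largest, *C3*, was 1.43 (standard error 0.55, limma adjusted p = 0.147). For *Cfb* it was 0.18 (standard error 0.70, limma adjusted p = 0.920), so that no difference between the lines was detectable on that scale.

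The 6 genes are part of a list of 48 complement genes, all in the tables. With bleomycin in *Acta2-tdT* cells, 22 of 28 tested were higher and 2 lower on deposited FPKM, where 70.4% of all genes tested were higher and 16.3% lower. The median log2 fold change of the list was 2.29 against 1.76 over all genes tested. On scaled FPKM 9 were higher and 7 lower, where 23.7% of all genes tested were higher and 32.1% lower, with a median of 0.26 against -0.03. The counts by role have the same shares of all genes behind them. By role, the 3 tested genes of the alternative route (*C3*, *Cfb* and *Cfp*) were all higher on both scales. Of 6 tested classical genes 6 were higher on deposited FPKM, and 3 higher and 1 lower on scaled FPKM. Of 7 tested inhibitors 5 were higher and 1 lower on deposited FPKM, and none higher and 2 lower on scaled FPKM.

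**Figure D4:**
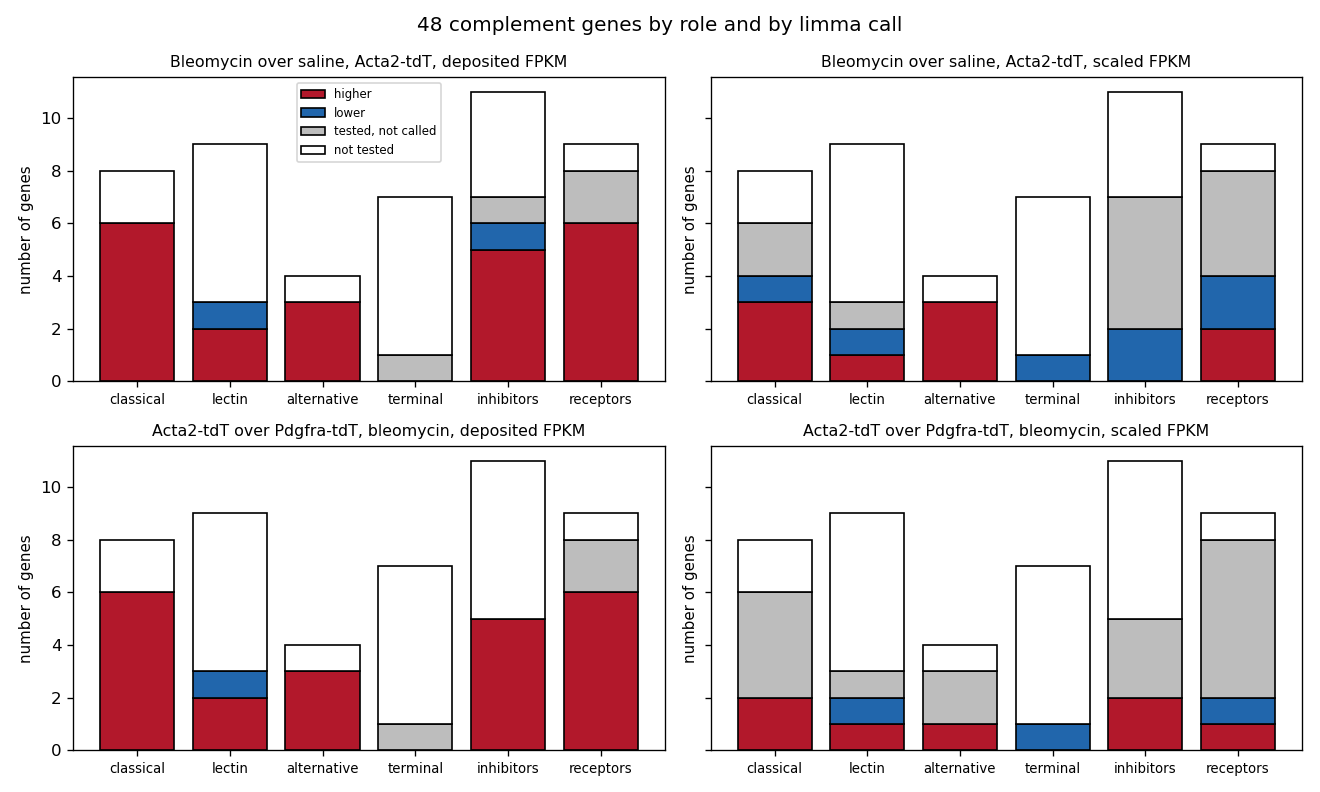
Number of complement genes by role, of 48 listed, that were higher (red), lower (blue), tested and not called (grey) or not tested (white) by limma in *Acta2-tdT* cells after bleomycin (upper panels) and between the lines after bleomycin (lower panels). The 3 tested genes of the alternative route are red in both upper panels, while no inhibitor is red in the upper right one.

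Among the genes higher on both scales in *Acta2-tdT* cells were the C1q chains, which recognize bound antibody and dying cells and are known products of macrophages. The mean of *C1qc* was 11.5 ± 13.8 FPKM with saline and 475.3 ± 298.8 with bleomycin (SD, n = 4 each), and its scaled log2 fold change of 2.76 (standard error 0.59, limma adjusted p = 0.0032) was the highest of the list. *C1qb* and *C1qa* changed by 2.102 (standard error 0.56, limma adjusted p = 0.0099) and 1.99 (standard error 0.59, limma adjusted p = 0.0176). *Fcna*, a ficolin of the lectin route, changed by 2.40 (standard error 0.51, limma adjusted p = 0.0032), and *Cfp*, properdin, which stabilizes the alternative protease, by 1.62 (standard error 0.34, limma adjusted p = 0.0031). Of the 10 macrophage markers, 9 were tested and 5 were higher on scaled FPKM in the same comparison, with none lower. The part of macrophages in these genes was not tested.

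Of the genes that fell on both scales, *Colec10*, a collectin of the lectin route, averaged 1.67 ± 0.27 FPKM with saline and 0.298 ± 0.142 with bleomycin (SD, n = 4 each), a scaled log2 fold change of -2.38 (standard error 0.21, limma adjusted p = 2.3e-05). *Vtn*, vitronectin, which inhibits the membrane attack complex, averaged 2.86 ± 1.46 FPKM with saline and 0.907 ± 0.729 with bleomycin (SD, n = 4 each), with overlap on deposited but not on scaled FPKM, where the change was -2.72 (standard error 0.27, limma adjusted p = 3.0e-05). The median of the olfactory and vomeronasal receptor genes fell between the same groups, from 0.321 to 0.329 FPKM to 0.0130 to 0.120, and from 0.709 to 1.17 to 0.00357 to 0.0661 on scaled FPKM. Whether the falls of *Colec10* and *Vtn* are part of that drop in low values was not tested. In saline-treated mice *Vtn* was the complement gene that was higher in *Acta2-tdT* cells on both scales, with 0.0615 ± 0.109 FPKM (SD, n = 4) in *Pdgfra-tdT* cells and log2 differences of 1.79 and 2.82 (limma adjusted p = 0.0147 and 0.0061). Of 15 complement genes tested there, 2 passed on deposited and 1 on scaled FPKM, and without *Pdgfra-tdT* saline mouse 3 these were 5 and 7, where 29.4% and 37.8% of all genes tested passed.

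Between the lines after bleomycin, 22 of 26 tested complement genes were higher and 1 lower in *Acta2-tdT* cells on deposited FPKM, where 71% of all genes tested were higher and 8.61% lower. The list's median was 2.30 against 1.81 over all genes. On scaled FPKM 7 were higher and 3 lower, where 15.2% of all genes tested were higher and 17.6% lower, with a median of 0.46 against 0.26. Beside *C3*, *C4b* and *Serping1*, the genes higher on both scales included *C1qc* at 2.59 on scaled FPKM (limma adjusted p = 0.0456), *Fcna* at 1.95 (limma adjusted p = 0.0360) and *Vsig4*, a macrophage receptor for *C3* fragments, at 1.21 (limma adjusted p = 0.0374). *Colec10* was lower on both, by -2.35 on scaled FPKM (limma adjusted p = 0.0026), and the median of the receptor genes was also lower there, at most 0.0661 against 0.0850 to 1.36 scaled FPKM. Without 1 of the *Acta2-tdT* bleomycin mice 6 to 8, 6, 5 and 4 genes passed on scaled FPKM in place of 10, where 26.1%, 21.8% and 21% of all genes tested passed. In *Pdgfra-tdT* cells bleomycin changed none of the 12 complement genes tested on either scale, but on deposited FPKM it changed *C1qb* without *Pdgfra-tdT* bleomycin mouse 8, where 1% of all genes tested passed, and all 3 C1q chains with sample quality weights, where 7.53% did.

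The members' levels are set beside those of cell markers in the 16 mice as a description. *Cfb* on scaled FPKM was 3.28 or more in 7 of the 8 bleomycin mice and at most 1.05 in the other 9 mice. The macrophage markers summed to 64.7 to 498.0 scaled FPKM in the 8 saline mice, 506.3 to 1498 in the *Acta2-tdT* bleomycin mice and 1637 to 4166 in the *Pdgfra-tdT* bleomycin mice, where mouse 8 had the lowest sum and the lowest *Cfb*, 0.448, from about 2 fragments. Mouse 8 also had the lowest nuclear protein-coding sum of the 16 mice, 28512. The part of macrophages or of the library in *Cfb* was not tested. *C3ar1* put the mice in the same order as the macrophage sum in *Acta2-tdT* bleomycin and in *Pdgfra-tdT* saline, and in another order in the other 2 groups. It was 1.12 to 7.64 in the *Acta2-tdT* and 0.938 to 5.15 in the *Pdgfra-tdT* bleomycin mice. Of the 10 macrophage markers, *Csf1r* was higher in *Acta2-tdT* and *Marco* in *Pdgfra-tdT* cells between these groups, and the other 8, *Lyz2* among them (limma adjusted p = 0.0519), did not pass on scaled FPKM. *Serping1* was lowest, at 0.465 and 1.08, in the 2 mice with the lowest fibroblast markers, at 11.5 and 11.7 scaled FPKM. These values of *Serping1* came from about 3 and 6 fragments. In *Acta2-tdT* mice the fibroblast markers summed to 67.8 to 93.0 scaled FPKM with saline and 576.2 to 872.0 with bleomycin. *Serping1* was at 32.15 to 63.35 and 47.49 to 99.79 in the same mice, a difference that did not pass. With the endothelial markers, *Serping1* was high both where they were near their lowest, in *Acta2-tdT* bleomycin mice at 7.86 to 13.3, and where they were highest, in the 2 *Pdgfra-tdT* mice that stood apart. What fibroblasts or endothelial cells added to *Serping1* was not tested.

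**Figure D5:**
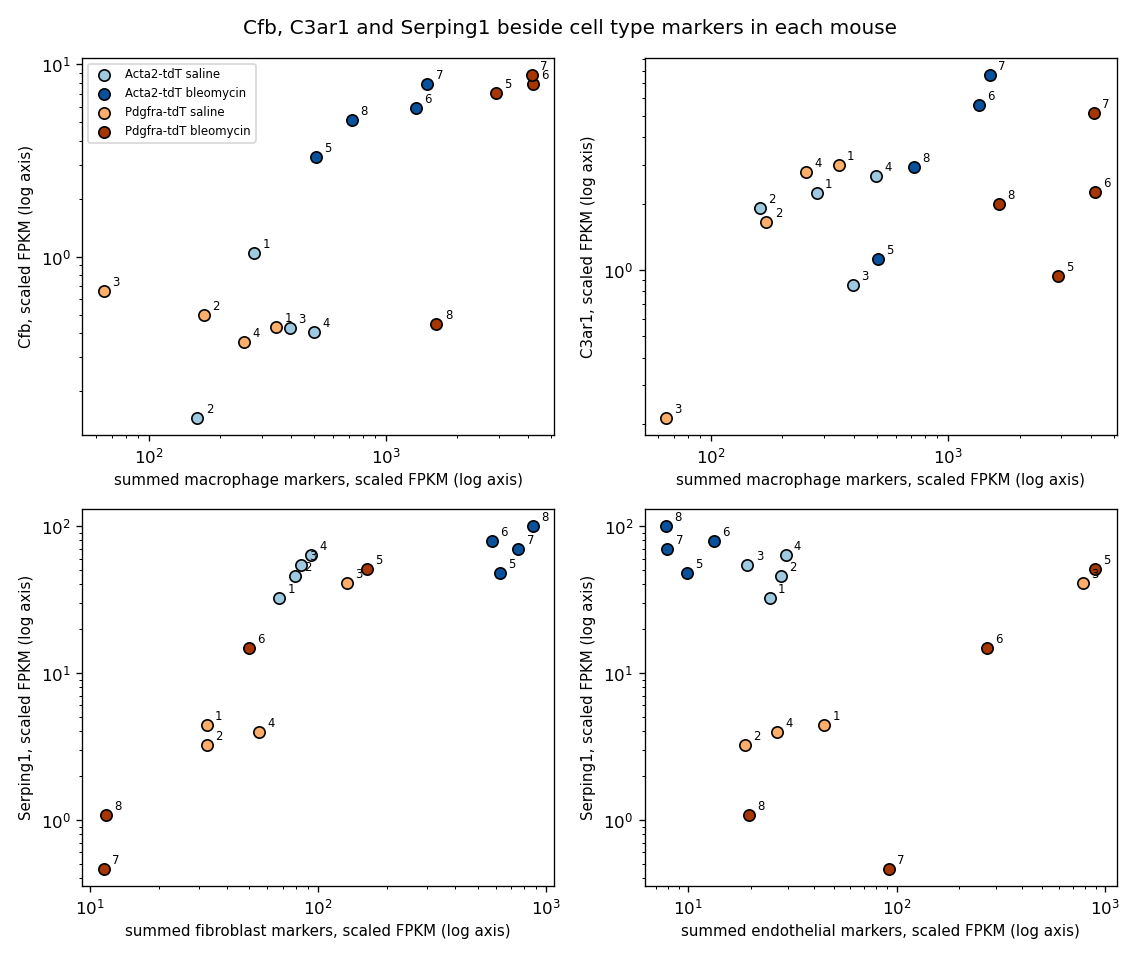
Scaled FPKM of *Cfb*, *C3ar1* and *Serping1* (vertical log axes) against the summed scaled FPKM of 10 macrophage, 8 fibroblast or 7 endothelial markers (horizontal log axes), 1 numbered point a mouse, 16 mice in 4 colours for the groups. *Pdgfra-tdT* bleomycin mouse 8, with the lowest nuclear protein-coding sum of the 16 mice, lies at 0.448 of *Cfb* and 1637 of macrophage markers, of which *Lyz2* is 93.6%. *Serping1* is lowest, from about 3 and 6 fragments, in the 2 mice with the lowest fibroblast markers.

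The genes whose pattern was most like each member were found by Pearson's r of log2(scaled FPKM + 1) over the 16 mice, among 9818 genes. The mice fall into 4 groups and share a library each and the scaling, so that r is a description, and r of the deviations from the group means is given beside it. *Serping1* was closest to *Cnn3* (0.96, within groups 0.97), *Dcn* (0.96, within groups 0.99) and *Prss23* (0.96, within groups 0.91), of which *Dcn* encodes the matrix proteoglycan decorin. *Cfb* was closest to *Pld3* (0.95, within groups 0.87), *Lpl* (0.94, within groups 0.78) and *Clec4n* (0.93, within groups 0.80), of which *Clec4n* encodes dectin-2, a receptor of myeloid cells. *C3* was closest to *Tep1* (0.92, within groups 0.84), *Mrpl38* (0.91, within groups 0.77) and *Nudt4* (0.91, within groups 0.70). *C4b* was closest to *Htra1*, *Arhgef25* and *Nupr1* (0.93 each), with r within groups of 0.46, 0.06 and 0.23, so that this likeness lay mainly between the groups. *C3ar1* was closest to *Tbxas1*, thromboxane synthase (0.86, within groups 0.93), *Napsa* (0.84, within groups 0.81) and *Dab2* (0.83, within groups 0.83). *C5ar1* had the least close neighbours, *Pqlc3* (0.81, within groups 0.69), *Cmas* (0.80, within groups 0.71) and *Zfp512* (0.79, within groups 0.76).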

How the data were processed

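FPKM per gene were deposited for each of the 16 mice. The authors aligned the reads to GRCm38 (mm10) with TopHat2 2.1.1 and Bowtie2 and made the FPKM with Cufflinks 2.1.1, mouse by mouse, per the paper and the submitters' processing notes. Rows of a gene (49534 rows, 49452 genes) were summed, and no mice had identical values. FPKM carry no counts, so the depth is unknown and no counting interval was made. The fragments given for single values are approximations from the Cufflinks bounds. Scaled FPKM set the sum over 21961 nuclear protein-coding genes of each mouse to the mean of the 16 mice.

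Tests used limma 3.58.1 (eBayes with trend) in R 4.3.3 with data.table (1.17.8), on log2(FPKM + 1), for genes that reached 1 FPKM in 4 or more of the compared mice, with Benjamini-Hochberg adjustment over all of them and a threshold of 0.05. Each comparison used its 8 mice and the interaction all 16. On scaled FPKM the genes tested were the same. The procedure was tested on simulated data. Members that limma did not test were compared with the exact two-sided permutation test. Groups and mouse numbers are from the labels, the p-values measure only the spread between these mice, and comparisons share groups. Reading used Python 3.11.15 with pandas 2.3.3 and NumPy 2.4.6, and plots matplotlib 3.10.9.

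The members, the complement list and the marker lists were chosen with earlier results of these data known. The genes named are the 6 members, up to 8 complement genes a comparison that passed on both scales in the same direction, by the size of the scaled change, and the 3 genes most like each member. One complement gene among those this rule names is not reported here, and stays in the counts of the list. Alternatives were another pseudocount, other filters, scaling, quantile normalization, 1 fit of all mice, the largest row per gene, sample quality weights, a replicate block and leaving out mice.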

Additional observations from a re-analysis of the deposited data

Results flagged for a closer look

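In 4 of the 24 sets of 4 mice (6 genes in 4 groups), 1 mouse lay so far from the others on the log2 scale that its gap to the nearest, as a share of the whole range, passed the critical value of Dixon's test. Chance does this in about 1 in 20 independent sets, and sets that share a mouse are not independent. In *Pdgfra-tdT* saline, mouse 3 was far above the others for *C3* (gap 0.908 of the range, at 1.35 FPKM), *Cfb* (0.918, at 0.312 FPKM) and *Serping1* (0.923, at 19.2 FPKM). Its *Cfb* value came from about 12 fragments, against 3 to 7 in the other mice of that group. In *Pdgfra-tdT* bleomycin, mouse 5 was far above the others for *C5ar1* (0.959, at 4.90 FPKM). These are the mice with the high endothelial markers, whose part in the values was not tested.

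The effect of bleomycin differed between the lines on deposited FPKM by the interaction in limma for *C3* (3.24), *C4b* (2.40), *Cfb* (2.13) and *C3ar1* (2.28 on the log2 scale). These genes could pass the filter through the *Acta2-tdT* bleomycin mice alone, where they were high. The call of *Cfb* was lost without *Acta2-tdT* bleomycin mouse 7, with no filter, with a pseudocount of 0.1, with quantile normalization and with a replicate block. That of *C3ar1* was lost with a pseudocount of 0.1 and with quantile normalization, and that of *C4b* with quantile normalization. On scaled FPKM the same differences were 1.43, 0.33, 0.18 and 0.41, and none passed.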

How the results depend on the processing

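The scaling of the mice decided most calls. With it, 3 of 6 members passed in place of 6 between the lines after bleomycin, 2 in place of 6 with bleomycin in *Acta2-tdT* cells and 0 in place of 4 in the interaction. Of all genes tested, 15.2% and 23.7% were higher and, in the interaction, 3.28% passed in either direction. Without the scaling 71%, 70.4% and 36.6% were higher. With quantile normalization the counts of members were 3, 5 and 1, where 34.9%, 70.2% and 9.61% of all genes tested passed. With bleomycin in *Acta2-tdT* cells *Serping1* (1.21), *C4b* (0.71) and *C3ar1* (1.23) passed with it. In the interaction 2 passed with a pseudocount of 0.1 (20.9% of all genes). With a mean FPKM of at least 5, *Serping1* alone of the members was tested and did not pass, where 28.8% of all genes tested did. The 4 members called in the main fit were under that filter, so this setting says nothing about them. In saline-treated mice 1 passed, *Serping1*, with sample quality weights (33.3% of all genes) and without *Pdgfra-tdT* saline mouse 3 on either scale. Leaving out both *Pdgfra-tdT* mice that stood apart was a setting chosen after the data were seen. It is the same fit here, because the other of them received bleomycin. Leaving out each mouse in turn gave 0 to 1 members in saline-treated mice on both scales.

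Directions that turned are given on scaled FPKM unless said. *Serping1* in *Pdgfra-tdT* cells was -0.24 with the scaling, against 0.45, and leaving out 1 mouse in turn moved it from -0.72 (bleomycin mouse 5) to 1.29 on deposited and from -1.19 to 0.54 on scaled FPKM, above 0 without saline mouse 3 (0.54) and bleomycin mice 7 (0.52) and 8 (0.35). *C5ar1* was -0.68 in the interaction with the scaling, against 1.47, and neither passed. Leaving out 1 mouse in turn moved it from -0.017 (*Acta2-tdT* bleomycin mouse 7) to 0.47 between the lines after bleomycin, and from -0.16 to 0.33 with bleomycin in *Acta2-tdT* cells, below 0 without saline mouse 3 (-0.14) and bleomycin mice 6 (-0.05), 7 (-0.16) and 8 (-0.01). *Cfb* moved from -0.49 to 0.43 between the lines after bleomycin and from -0.48 to 0.44 in the interaction, below 0 without *Pdgfra-tdT* bleomycin mouse 8 alone. With both *Pdgfra-tdT* mice that stood apart left out, *Cfb* (0.044) and *C3ar1* (-0.27) turned between the lines in saline-treated mice, as did *C3* (0.26) and *C4b* (0.066, and 0.074 on deposited FPKM) with bleomycin in *Pdgfra-tdT* cells. The cause was not tested.

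Deviations of same-numbered mice of the lines had r from -0.31 to 0.16, against -0.355 to 0.324 for mice of other numbers. No pairing by number was assumed in the main fits, though so few mice cannot exclude one. With a replicate block 0, 6 and 3 members passed in saline-treated mice, between the lines after bleomycin and in the interaction, where 0.442%, 78.2% and 31.6% of all genes tested passed and *Cfb* had an adjusted p of 0.0664 in limma. No paired analysis was possible for bleomycin against saline because these groups share no numbers. Complement genes called in saline-treated mice numbered 2 on deposited FPKM and 0 to 7 under the alternatives, and on scaled FPKM in *Acta2-tdT* cells after bleomycin 27 with no filter in place of 16. Many values below 1 FPKM in *Pdgfra-tdT* cells rested on few fragments, down to about 2 for *Cfb*, which limits what could be seen there.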
